A study of Mus musculus with 583 samples.

Results

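Cells with high and with low levels of 6 p53 target genes were compared within each library of a study that profiled mouse embryonic stem cells with 6 single-cell RNA-seq methods. In every library the cells were ranked by the mean over Mdm2, Cdkn1a, Ccng1, Phlda3, Aen and Trp53inp1 of log2(CPM + 1), with CPM (counts scaled to the same total in each cell) taken on mouse genes without the spike-ins. The highest-ranked 1/3 of the cells are called high cells here and the lowest-ranked 1/3 low cells. Of all cells, 191 were high, 191 were low and 201 lay between them, with 9 to 26 high cells and as many low cells in each library. All cells came from the J1 line, kept in medium with 2i (inhibitors of the kinases MEK and GSK3) and LIF, which holds embryonic stem cells in the naive state. No cell was treated, mutated or stressed by design, and no group of the study is defined by p53. The labels name 2 replicates, A and B, of each method, so there are 12 libraries. Smart-seq / C1 and Smart-seq2 read whole transcripts (4 libraries). Drop-seq, CEL-seq2, SCRB-seq and MARS-seq count unique molecular identifiers (UMIs) at the 3' end (8 libraries). The library is the replicate. Nothing in the labels says that the replicates came from separate cultures, so the p-values reflect how far these libraries vary, and that variation may be technical.

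The tumour suppressor p53 (Trp53 in the mouse) is a transcription factor that cells keep at a low level and stabilise after DNA damage and other stress. It binds a site made of a pair of similar stretches of 10 bases and switches on genes that stop the cell cycle, repair DNA, change metabolism or start apoptosis. Among its targets is Mdm2, the ubiquitin ligase that marks p53 itself for breakdown, so that the pathway limits its own activity. Embryonic stem cells divide fast, hold a p53 protein that can be activated, and lack a strict checkpoint before DNA replication.

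The values that chose the cells are given as a description and without a test. The median score of the high cells ran between 4.68 (Drop-seq A) and 8.02 (Smart-seq2 A) over the libraries, against 1.48 (MARS-seq A) to 5.88 (Smart-seq2 B) for the low cells. At the edge of the high group the lowest score inside ran between 4.11 and 7.65 over the libraries and the next score outside between 4.04 and 7.62. At the edge of the low group the highest score inside ran between 2.48 and 6.36, and the next score outside between 2.49 and 6.40, so the edges cut a continuous range. A median cell held between 6 counts of the 6 genes together (Drop-seq A) and 483 (Smart-seq2 A), and in the 4 MARS-seq and Drop-seq libraries that median was at most 10. The sums compared held 171727 to 11482447 counts, and the 6 genes made up 0.107% of all counts. High cells were also deeper in 10 of 12 libraries, with a ratio of median counts, high over low, between 0.853 (MARS-seq B) and 1.84 (Drop-seq A) and a median of 1.06. When each cell was thinned to 10000 counts before ranking, 130 of the 191 high cells and 132 of the 191 low cells kept their place. In all, 19 cells crossed from 1 group to the other, counted in both directions. In Drop-seq, 29 of the 42 barcodes in A and 12 of the 34 in B had a near-twin that differed by a single base (changed or lost), and joining such twins left 25 and 28 cells. Replicates A and B of a method shared between 0 (Drop-seq) and 66 (Smart-seq2) barcodes or plate positions, which are reused from plate to plate.

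Windows of 300 bases around the RefSeq start of each gene (250 before, 50 after; build GRCm38.p6) were searched for the p53 site, since the ranking rests on genes known as its targets. A window had a p53 decamer if it held a stretch of 10 bases that met the p53 decamer consensus, which reads the same on both strands. A full site was a pair of adjacent decamers with C and G in place around both centres and up to 2 differences from the consensus over 20 bases. Sites are shown for the 2 ranking genes and the 3 genes that rose (below) with a full site, 5′ to 3′ on the strand of the gene, with the 4 central bases of each decamer in capitals.
Cdkn1a: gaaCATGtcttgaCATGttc
Ccng1: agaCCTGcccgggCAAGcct
Gtse1: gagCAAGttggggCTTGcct
Ckap2: agaCATGtcctgaCTTGtca
Pid1: aagCCCGcccgggCATGctc
The Cdkn1a, Ccng1 and Gtse1 sites each differed from the consensus at 1 base, and the Ckap2 and Pid1 sites at 2. The Cdkn1a site lay at chr17:29090928-29090947 on the plus strand, 51 to 32 bases before the start of an upstream transcript, and that of Ccng1 at chr11:40755462-40755481 on the minus strand, 195 to 176 bases before the start. The Gtse1 site spanned the more downstream of the gene's 2 RefSeq starts, at chr15:85859945-85859964 on the plus strand. Those of Ckap2 (chr8:22186003-22186022) and Pid1 (chr1:84284684-84284703) were on the minus strand, 203 to 184 and 58 to 39 bases before the start. For Pid1 that RefSeq start lies inside the longer span that GENCODE gives the gene. A gene with several RefSeq starts was counted once, over all its windows. A full site was found in 3 of 58 genes that rose and had a window (5.17%), in none of 9 that fell, and in 26 of 5617 genes tested (0.463%). A decamer was found in 11 of the 58 (18.97%), in 1 of the 9 (11.1%) and in 441 of the 5617 (7.85%). These matches describe letters in a window and were not tested.

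Each ranking gene was next left out of the score, the cells were ranked again by the other 5, and the left-out gene was read. Of the 6, 5 were higher in the high cells chosen by the others: Mdm2, Cdkn1a, Ccng1, Phlda3 and Trp53inp1, with fold changes of 1.45 to 2.92. Trp53inp1, a nuclear protein that amplifies p53 signalling and autophagy, had a lowest, median and highest level over the 12 libraries of 29.8, 157 and 553 CPM in high cells, against 10.98, 76.1 and 179.9 CPM in low cells (CPM here without TMM scaling). It was higher in 12 of 12 libraries (log2 fold change 1.55 ± 0.19 (SE), adjusted p = 9.96e-05, edgeR quasi-likelihood test with Benjamini-Hochberg adjustment over all genes). With cells ranked on counts thinned to 10000 per cell it did not pass (1.21 ± 0.26 (SE), adjusted p = 0.0517, edgeR). Mdm2 was at 49.1, 201 and 471 CPM in high cells, against 24.9, 80.9 and 151 CPM in low cells, and again every library had the higher level in its high cells (log2 fold change 1.27 ± 0.16 (SE), adjusted p = 2.54e-05). Ccng1, cyclin G1, a partner of a phosphatase that acts on Mdm2, was at 45.5, 266 and 551 CPM in high cells, against 43.1, 143 and 211 CPM in low cells. It was higher in 11 of 12 libraries (log2 fold change 1.02 ± 0.15 (SE), adjusted p = 0.000533). Phlda3, a competitor of the kinase Akt for membrane lipids, was at 10.8, 42.4 and 239.7 CPM in high cells, against 3.17, 29.3 and 86.4 CPM in low cells, higher in 9 of 12 libraries (log2 fold change 1.15 ± 0.25 (SE), adjusted p = 0.0163). Its adjusted p was 0.107 without Smart-seq / C1 replicate B, 0.0636 without Smart-seq2 replicate A and 0.0916 without Smart-seq2 replicate B. Cdkn1a, which encodes the cyclin-dependent kinase inhibitor p21, was at 44.8, 199 and 1339.8 CPM in high cells, against 34.8, 141 and 899.8 CPM in low cells, higher in 11 of 12 libraries but by the smallest factor of the 5 (log2 fold change 0.54 ± 0.082 (SE), adjusted p = 0.000164). Aen, an exonuclease of p53-driven apoptosis, did not pass. Its levels were 5.11, 22.2 and 207 CPM in high cells, against 5.20, 16.4 and 127 CPM in low cells (log2 fold change 0.35 ± 0.21 (SE), adjusted p = 0.571), with 9 of 12 libraries higher and a log2 ratio of -1.30 in Smart-seq / C1 A. Without that library the log2 fold change was 0.64 ± 0.18 (SE, adjusted p = 0.0761, edgeR). Cdkn1a shares 11.3% of the 31-base stretches of its longest transcript with another gene, so its count depends on how reads of both were assigned.

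**Figure D1:**
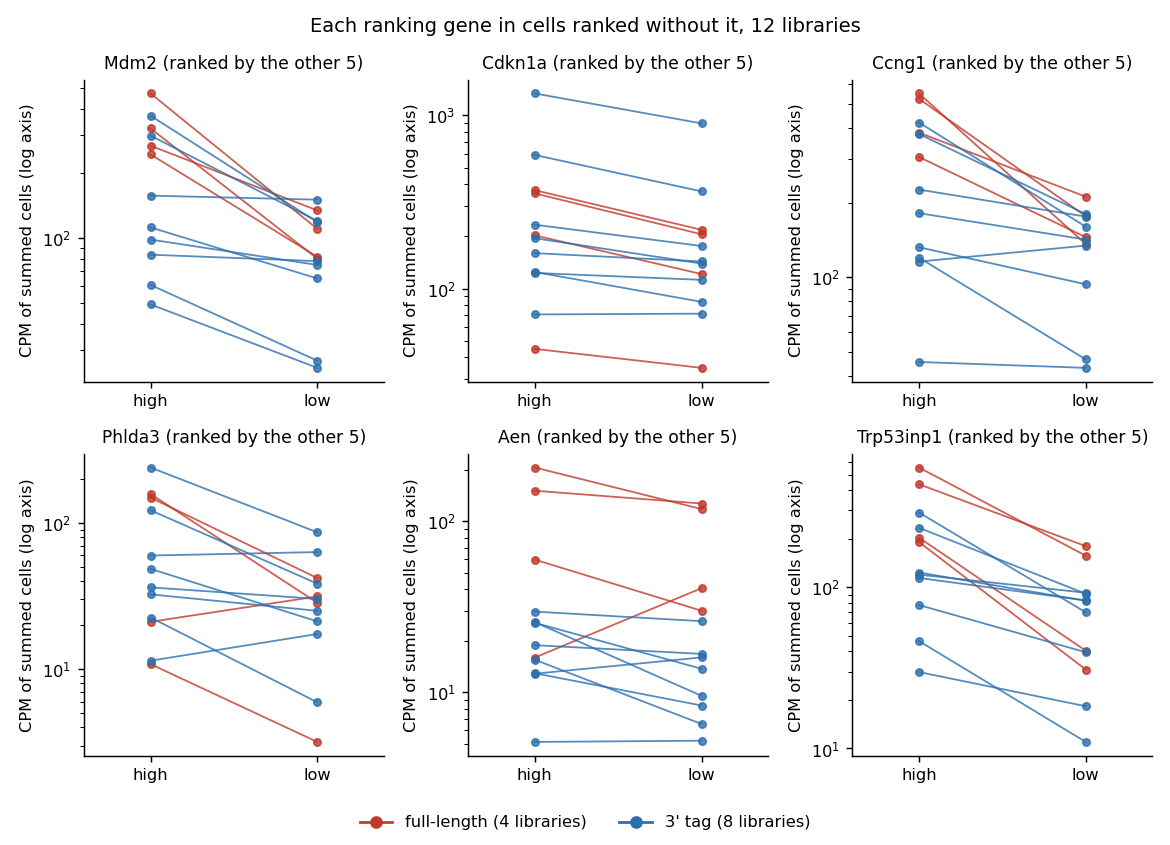
Level of each ranking gene (CPM of summed cells, log axis) in high and low cells of each library when the cells were ranked by the other 5 genes; each line joins the 2 sums of a library, with full-length libraries in red and 3' tag libraries in blue. Mdm2 and Trp53inp1 were higher in the high cells of 12 of 12 libraries, Aen in 9.

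Across all genes outside the 6, 62 of 7556 tested were higher in high cells (0.821%) and 11 were lower (0.146%), at an adjusted p below 0.05 in edgeR's quasi-likelihood test on the sums with the library as a block. The list was led by Psrc1, Cd81, Rev1, Inpp5d and Rap2b by p and by Plk2, Btg2, Pid1, Wdr35 and Sdc4 by size. Of the 62, 23 were in lists of known p53 targets and 39 were not. The rises had log2 fold changes of 0.43 to 4.44 with a median of 0.90, the falls of -0.72 to -0.31, and the median over all 7556 genes was -0.020. Of the 62, 8 were higher in all 12 libraries and 52 in at least 10, and the fewest was 7 (Cox6b2, named for that count after its values were seen). All 11 that fell were lower in at least 10 libraries, but their number dropped to 1 without CEL-seq2 replicate B, to 3 without Smart-seq2 replicate A, to 4 without Smart-seq2 replicate B, to 6 without CEL-seq2 replicate A and to 6 without MARS-seq replicate B. With cells ranked on 10000 counts 3 of the 11 were called, and limma called none. At an unadjusted p below 0.05, 439 genes were higher and 425 lower. The count of 62 fell to 29 without Smart-seq2 replicate A, to 32 without Smart-seq2 replicate B and to 38 without CEL-seq2 replicate B, and limma-trend on log2 CPM called 6. DESeq2 with its own size factors called 112 higher and 41 lower. Of the 46 tested members of the 4 target lists, DESeq2 called 23 higher, limma 3, and neither called any lower. The 3 limma calls were all in the list for growth arrest and feedback. Fitted alone, full-length methods called 2 of 70 tested members higher and tag methods 1 of 23.

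**Figure D2:**
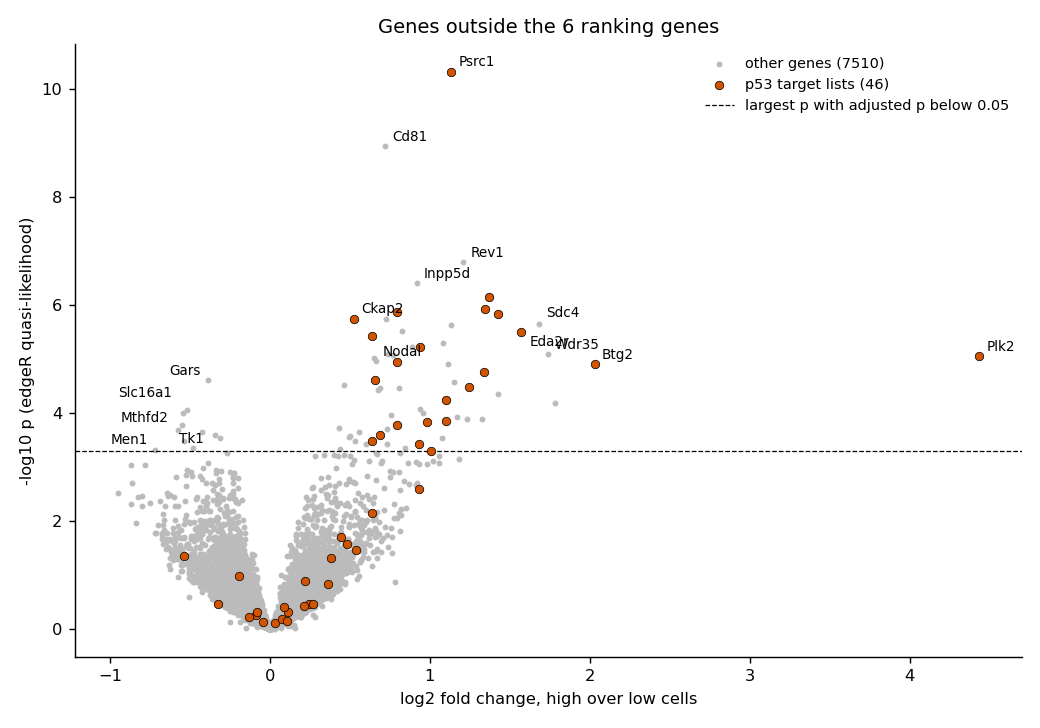
Log2 fold change, high over low cells, against -log10 p for the 7556 genes tested outside the ranking genes; orange points are the 46 tested members of the p53 target lists and the dashed line is the largest p that passed. Of the orange points, 23 passed, all on the right, and Plk2 lies farthest right at 4.44.

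Psrc1, a microtubule-binding protein of the mitotic spindle known as a p53 target, had the smallest p. Its lowest, median and highest levels over the libraries (CPM after TMM scaling, here and below) were 56.4, 145 and 472 CPM in high cells, against 32.7, 83.1 and 166 CPM in low cells. The ranges overlap between libraries of different methods, but within each of the 12 libraries the high cells had more (log2 fold change 1.13 ± 0.13 (SE), adjusted p = 1.23e-07). The difference averaged 1.56 on the log2 scale in Smart-seq2, 1.33 in CEL-seq2, 1.23 in Smart-seq / C1, 0.999 in MARS-seq, 0.67 in Drop-seq and 0.26 in SCRB-seq. Cd81, a tetraspanin of the cell surface that was in none of the lists, stood next, at 125, 336 and 698 CPM in high cells, against 82.1, 212 and 386 CPM in low cells. All 12 libraries were higher (log2 fold change 0.72 ± 0.091 (SE), adjusted p = 2.19e-06), by 0.24 to 1.22 on the log2 scale. Rev1, a polymerase that copies across damaged DNA, was at 26.6, 51.3 and 89.1 CPM in high cells, against 7.48, 23.7 and 45.4 CPM in low cells, again higher in 12 of 12 (log2 fold change 1.21 ± 0.19 (SE), adjusted p = 0.000204). Rev1 shares 26.1% of its 31-base stretches with another gene. Inpp5d, the lipid phosphatase SHIP1, was at 25.4, 104 and 185 CPM in high cells, against 12.97, 43.9 and 108 CPM in low cells and higher in 10 libraries (log2 fold change 0.92 ± 0.15 (SE), adjusted p = 0.000426).

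Targets that act in growth arrest and feedback formed the list with the largest share of rises: 10 of 15 tested members rose and none fell. Over all genes tested, 0.821% rose and 0.146% fell. The list's median log2 fold change was 0.66 against -0.020 over all genes. Plk2, a polo-like kinase of the centrosome cycle, changed most. It was at 0, 80.2 and 251 CPM in high cells, against 0, 5.19 and 18.03 CPM in low cells, and some sums held no count of it, so its fitted value (log2 fold change 4.44 ± 0.60 (SE), adjusted p = 0.0026) depends on how counts of 0 are handled. It was higher in 11 of 12 libraries, and the difference in the other one, a MARS-seq library, was -3.79 on the log2 scale. Btg2, an antiproliferative protein that promotes mRNA deadenylation, was at 20.3, 84.8 and 182 CPM in high cells, against 4.48, 15.9 and 85.03 CPM in low cells, with 12 of 12 libraries higher (log2 fold change 2.03 ± 0.33 (SE), adjusted p = 0.00297). Rap2b, a small GTPase, rose by 1.37 on the log2 scale (adjusted p = 0.000685, edgeR), but 57.8% of its 31-base stretches occur in another gene. Sesn2, a sestrin that restrains mTORC1, rose by 0.94 and Zmat3, an RNA-binding zinc-finger protein, by 0.80, each in 10 libraries. Ckap2, another spindle protein and 1 of the 3 risers with a full p53 site, was at 108, 172 and 406 CPM in high cells, against 82.3, 111 and 255.97 CPM in low cells. That is a small change seen in 12 of 12 libraries (log2 fold change 0.53 ± 0.094 (SE), adjusted p = 0.00107). Gtse1, which binds p53 and microtubules and carried the site at its start, rose by 0.64 and was higher in 9 libraries. Fbxw7 (0.66), the substrate receptor of a ubiquitin ligase for cyclin E and Myc, and Def6 (0.98) were the other two that rose, named after their values were seen. Def6 shares 14.8% of its 31-base stretches with another gene.

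Among targets of the apoptosis branch, 5 of 9 tested rose and none fell, against 0.821% and 0.146% of all genes tested. The median log2 fold change was 0.64 against -0.020 over all genes. Eda2r, a receptor of the TNF family, was at 0, 52.9 and 256.4 CPM in high cells, against 7.30, 22.3 and 93.8 CPM in low cells. It was higher in 10 libraries (log2 fold change 1.57 ± 0.27 (SE), adjusted p = 0.00132), and its lowest library difference, -5.30 on the log2 scale, was in a MARS-seq library with 0 in the high sum. Pidd1, the scaffold of the caspase-2 complex, rose by 1.24 and Tnfrsf10b, the mouse receptor for the death ligand TRAIL, by 1.10, each in 10 libraries. Each had a high sum at 0 CPM and a lowest library difference of -4.74 on the log2 scale. Their mean differences were below 0 in MARS-seq (-1.98 and -1.44) and SCRB-seq (-0.16 and -0.22) and above 0 in the other methods. Apaf1 (0.93), the core of the apoptosome, and Ei24 (0.64), a protein of the endoplasmic reticulum, rose as well and are named after their values were seen. Bax, the pore-forming protein of the mitochondrial pathway, was at 32.5, 183 and 678 CPM in high cells, against 8.53, 179.5 and 586 CPM in low cells, a difference within the spread between libraries (log2 fold change 0.032 ± 0.11 (SE), adjusted p = 0.949). Tnfrsf10b and Bax share 16.3% and 15.3% of their 31-base stretches with other genes.

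Of targets in DNA repair and nucleotide supply, 1 of 7 tested rose (0.821% of all genes tested did). The list's median log2 fold change was -0.084 against -0.020 over all genes. The member that rose was Ercc5, the XPG nuclease of nucleotide excision repair, at 0, 35.97 and 68.9 CPM in high cells, against 0, 13.2 and 41.03 CPM in low cells (log2 fold change 1.35 ± 0.23 (SE), adjusted p = 0.00102). Mgmt, which removes alkyl groups from guanine, was 0.93 ± 0.29 (SE) higher without passing (adjusted p = 0.123, edgeR). Xpc, the damage sensor of the same pathway as Ercc5, had 6.86, 28.6 and 46.6 CPM in high cells, against 7.48, 30.3 and 46.2 CPM in low cells (log2 fold change -0.13 ± 0.26 (SE), adjusted p = 0.9). Rrm2b, the p53-inducible subunit of ribonucleotide reductase, had a log2 fold change of -0.54 ± 0.26 (SE) and did not pass, and 14.99% of its 31-base stretches are shared.

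In the list of targets in metabolism, secretion and transport, 7 of 15 rose and none fell, against 0.821% and 0.146% of all genes tested. The median was 0.64 against -0.020 over all genes. Lpin1, a phosphatidate phosphatase, was at 5.09, 39.6 and 69.5 CPM in high cells, against 0, 14.2 and 44.9 CPM in low cells (log2 fold change 1.43 ± 0.25 (SE), adjusted p = 0.00103). Ak1, an adenylate kinase, was at 27.1, 102 and 295 CPM in high cells, against 30.8, 71.7 and 139 CPM in low cells, higher in 9 libraries (log2 fold change 0.79 ± 0.14 (SE), adjusted p = 0.00103). Slc19a2, a thiamine transporter, rose by 1.34 on the log2 scale in 11 of 12 libraries (adjusted p = 0.00399, edgeR). The other four that rose, named after their values were seen, were Ptp4a3 (1.10), Dcxr (1.01), Abhd4 (0.79) and Crip2 (0.69).

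Many p53 targets had too few counts for the test. Of 80 members of the 4 target lists with a count, 46 were tested, and a gene that is high only in high cells can pass such a filter through them, so the fit was also run on all 25587 genes with a count outside the 6. There 30 of the 80 rose and none fell, with a median log2 fold change of 0.71, against 138 of all genes that rose (0.539%), 19 that fell (0.0743%) and a median of 0.020. Of the 34 not tested in the first fit, 27 had more counts in high cells and 7 had more in low cells. Such counts, here and below, were pooled over libraries and not scaled to depth. The high sum was the deeper of the pair in most libraries, so these counts lean toward high cells. In the fit without a filter, which is scaled, 65 of the 80 lay above 0, against 13295 of the 25587 genes. The 80 include the 46 that were tested in the first fit. Of the 34, 7 rose in that fit: Ptpn14, Zfp365, Lif, Bbc3, Polk, Ephx1 and Inka2. Bbc3, which encodes the BH3-only protein Puma, had 647 counts in all high cells and 168 in all low cells, and was higher in 11 of 12 libraries (log2 fold change 1.82 ± 0.39 (SE), adjusted p = 0.00129, edgeR without a filter). In Smart-seq2 A it was at 23.8 CPM in high cells against 6.60 CPM in low cells, and in Smart-seq2 B at 24.7 CPM against 7.11 CPM. Ptpn14, a tyrosine phosphatase that restrains the transcriptional coactivator Yap, had 1341 counts in high cells and 134 in low cells. It was higher in 9 of 12 libraries, those of Smart-seq2 being 38.8 and 39.2 CPM in high cells against 1.90 and 4.20 CPM in low cells. Zfp365 had 896 counts in high cells against 98 in low cells, and Polk, a polymerase that bypasses bulky lesions, 1389 against 328.

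Others did not pass in either fit. Pmaip1, the BH3-only protein Noxa, had 737 counts in high cells against 333 in low cells and was higher in all 10 libraries where it was seen. Perp, a membrane protein, had 604 against 168, and Gdf15, a secreted stress cytokine, 483 against 157, each higher in 8 of 11 libraries. Fas, the death receptor, had 57 counts in the high cells of 4 libraries and none in any low cell, where 0 counts allow up to 3. Trp53cor1, the long non-coding RNA lincRNA-p21 that lies beside Cdkn1a, had 94 against 36. Ddb2, a damage sensor, had 388 against 304, and that gene was higher in 7 libraries and lower in 5. Trp53cor1 and Ddb2 share 48.7% and 25.6% of their 31-base stretches with other genes.

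**Figure D3:**
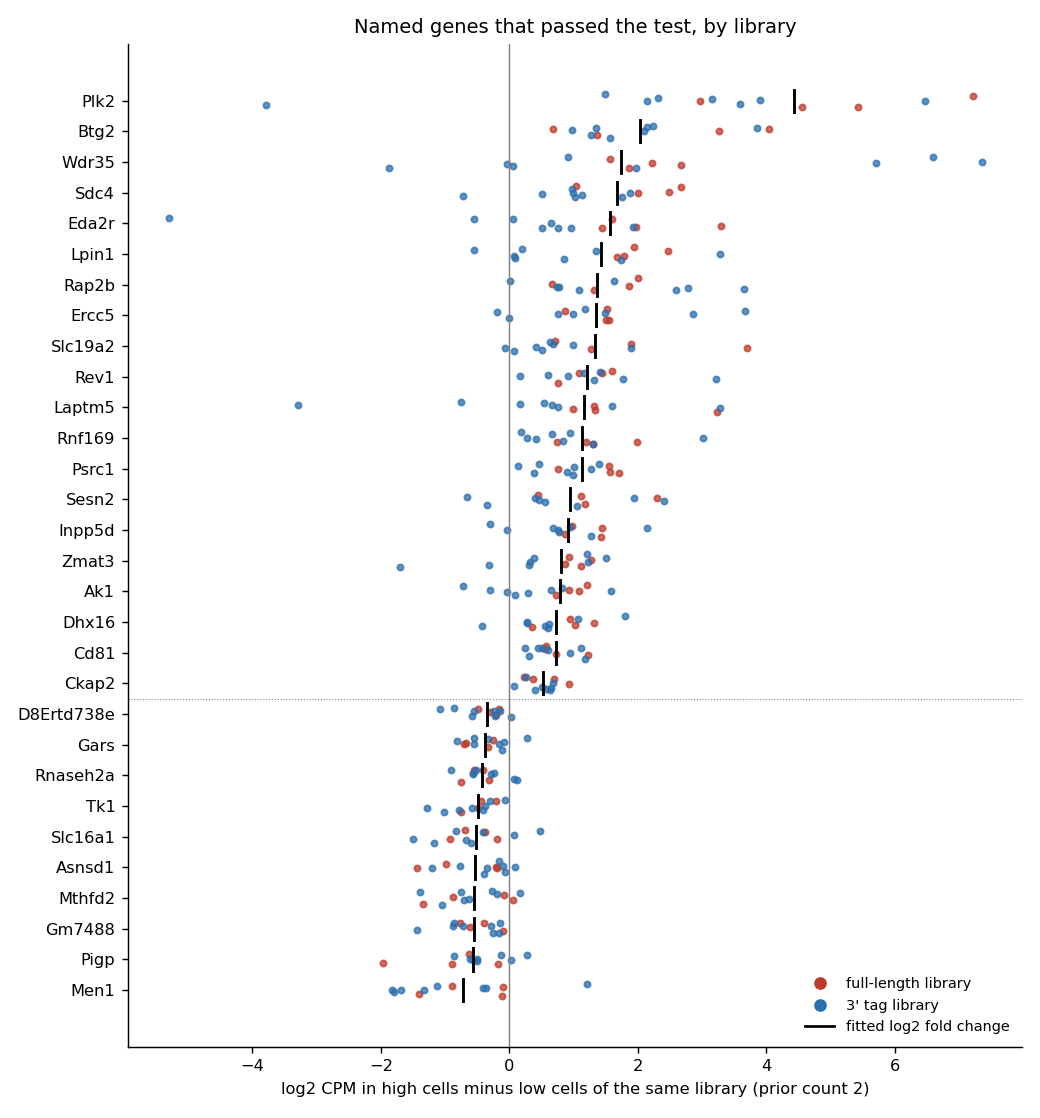
Difference in log2 CPM between high and low cells in each library (1 point per library, red for full-length and blue for 3' tag libraries) for named genes that rose (above the dotted line) or fell (below it), with the fitted log2 fold change as a black bar. Psrc1, Btg2, Rev1, Rnf169, Rap2b, Cd81 and Ckap2 lie right of 0 in 12 of 12 libraries, and Plk2 and Eda2r each have 1 MARS-seq library far to the left.

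Of 18 tested genes for p53 and its regulators none passed in either direction (median 0.060). Of the 22 with a count, 16 lay above 0 in the fit without a filter, none passing, against 13295 of all 25587 genes above 0. Trp53 itself was at 144, 463 and 1765 CPM in high cells, against 158, 419 and 1548 CPM in low cells, with 7 libraries higher (log2 fold change 0.03 ± 0.066 (SE), adjusted p = 0.919). Mdm4, which binds and holds back p53, was 0.68 ± 0.27 (SE) higher in log2 terms, in 8 of 12 libraries, without passing (adjusted p = 0.304), and 27.6% of its 31-base stretches are shared. Usp7, the deubiquitinase of Mdm2 and p53, had a log2 fold change of 0.24 in 11 libraries (adjusted p = 0.159, edgeR). Ppm1d, the phosphatase Wip1 that switches the damage response off, was at 0.32 ± 0.24 (SE). In the list for the double-strand break and replication-stress response, 0 of 22 passed (median -0.056), and 0 of 22 also had an unadjusted p below 0.05. Tipin (-0.16), Xrcc5 (-0.21) and Brca2 (-0.28) had its smallest p-values, the lowest adjusted p being 0.49 by edgeR. DESeq2 and limma called none of these 22 either. Of the 18 regulators, 3 were higher and 1 was lower at an unadjusted p below 0.05, and DESeq2 called 1 higher, Usp7 (adjusted p = 0.0421), while limma called none. Over all 7556 genes, 439 were higher and 425 lower at that unadjusted threshold.

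The genes named here from the 39 that rose outside the target lists are described singly. Rnf169, which reads ubiquitin marks at broken DNA, was at 19.1, 32.2 and 127 CPM in high cells, against 8.13, 14.6 and 75.99 CPM in low cells and higher in 12 of 12 libraries (log2 fold change 1.13 ± 0.21 (SE), adjusted p = 0.00113). Ddias (0.76), named for damage-induced apoptosis suppression, rose and was picked after its values were seen. Sdc4, a heparan sulfate proteoglycan, was at 21.3, 102 and 738 CPM in high cells, against 10.2, 70.1 and 222 CPM in low cells, higher in 11 libraries (log2 fold change 1.68 ± 0.23 (SE), adjusted p = 0.00113). Wdr35, a part of the retrograde transport complex of cilia, was at 10.2, 60.8 and 112 CPM in high cells, against 0, 17.5 and 46.01 CPM in low cells (log2 fold change 1.74 ± 0.30 (SE), adjusted p = 0.00258). Laptm5, a lysosomal membrane protein, was at 0, 63.4 and 163 CPM in high cells, against 0, 26.4 and 172 CPM in low cells and higher in 10 libraries (log2 fold change 1.15 ± 0.24 (SE), adjusted p = 0.00564). Dhx16, an RNA helicase of splicing, was at 117, 386 and 774 CPM in high cells, against 69.7, 198 and 411 CPM in low cells and rose in 11 libraries (log2 fold change 0.72 ± 0.12 (SE), adjusted p = 0.00107). Nodal, a TGF-beta ligand of early development, was the 1 member that rose among 8 tested of the Nodal and Lefty list, at 10.9, 102 and 361 CPM in high cells, against 17.4, 58.8 and 176 CPM in low cells (log2 fold change 0.66 ± 0.13 (SE), adjusted p = 0.00284). Lefty2, its antagonist and a target of the same pathway, had 8.18, 198 and 655 CPM in high cells, against 17.1, 172 and 564 CPM in low cells and did not pass (adjusted p = 0.722), and 17.6% of its 31-base stretches are shared. The median log2 fold change of the Nodal and Lefty list was 0.016 against -0.020 over all genes tested, of which 0.821% rose. Utp20, of ribosome assembly, rose by 0.44, a call kept in 11 of 27 alternatives. It was the 1 riser of 31 in its list, and 0.821% of all genes tested rose.

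Genes lower in high cells changed less. The largest fall was that of Men1, which encodes the chromatin regulator menin, at 5.998, 28.6 and 97.6 CPM in high cells, against 16.8, 52.4 and 108 CPM in low cells, lower in 11 of 12 libraries (log2 fold change -0.72 ± 0.19 (SE), adjusted p = 0.0464). That call was kept in 6 of 27 alternatives. Gars, the glycyl-tRNA synthetase, had the smallest p of those that fell. It was at 175, 265 and 378 CPM in high cells, against 195, 347 and 606 CPM in low cells, lower in 11 libraries (log2 fold change -0.39 ± 0.081 (SE), adjusted p = 0.00543). Mthfd2, a mitochondrial enzyme of folate metabolism, was at 54.1, 91.5 and 221 CPM in high cells, against 77.3, 159 and 238 CPM in low cells, lower in 10 (log2 fold change -0.54 ± 0.13 (SE), adjusted p = 0.0156). Both belong to the list for the integrated stress response driven by the transcription factor Atf4, in which 2 of 21 fell (0.146% of all genes tested did), none rose, and 19 of 21 had a log2 fold change below 0 (54.1% of all genes did; median -0.22 against -0.020 over all genes). At an unadjusted p below 0.05, 425 of all 7556 genes were lower and 439 higher. Of the 21, 10 were lower at that threshold, among them Psat1 (-0.45, adjusted p = 0.149), a serine synthesis enzyme, and 1 was higher. That one was Ddit4 (0.85, adjusted p = 0.184), an mTORC1 inhibitor that is also known as a p53 target. Without a filter 4 of 30 fell (0.0743% of all genes did), Psat1 and Chac1 besides the 2 above. Atf4 itself had a log2 fold change of -0.11 ± 0.095 (SE). Slc16a1, the lactate and pyruvate carrier MCT1, was at 33.8, 114 and 172 CPM in high cells, against 57.5, 151 and 204 CPM in low cells (log2 fold change -0.52 ± 0.12 (SE), adjusted p = 0.0142). Tk1, the thymidine kinase of S phase, was at 25.4, 63.4 and 97.5 CPM in high cells, against 49.4, 91.7 and 149.6 CPM in low cells and lower in 12 of 12 libraries (log2 fold change -0.48 ± 0.13 (SE), adjusted p = 0.0448). The ADP/ATP carrier Slc25a4 (-0.31) and D8Ertd738e (-0.35) fell as well. The call was kept in 16 of 27 alternatives for Slc16a1, in 12 for D8Ertd738e, in 11 for Asnsd1, in 14 each for Pigp and Rnaseh2a and in 16 for Gm7488. For the processed pseudogene Gm7488 (-0.55), Asnsd1 (-0.54), Pigp (-0.57) and Rnaseh2a (-0.42), 23.1% to 100% of the 31-base stretches occur in another gene, so these calls are uncertain as to which copy gave the counts.

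**Figure D4:**
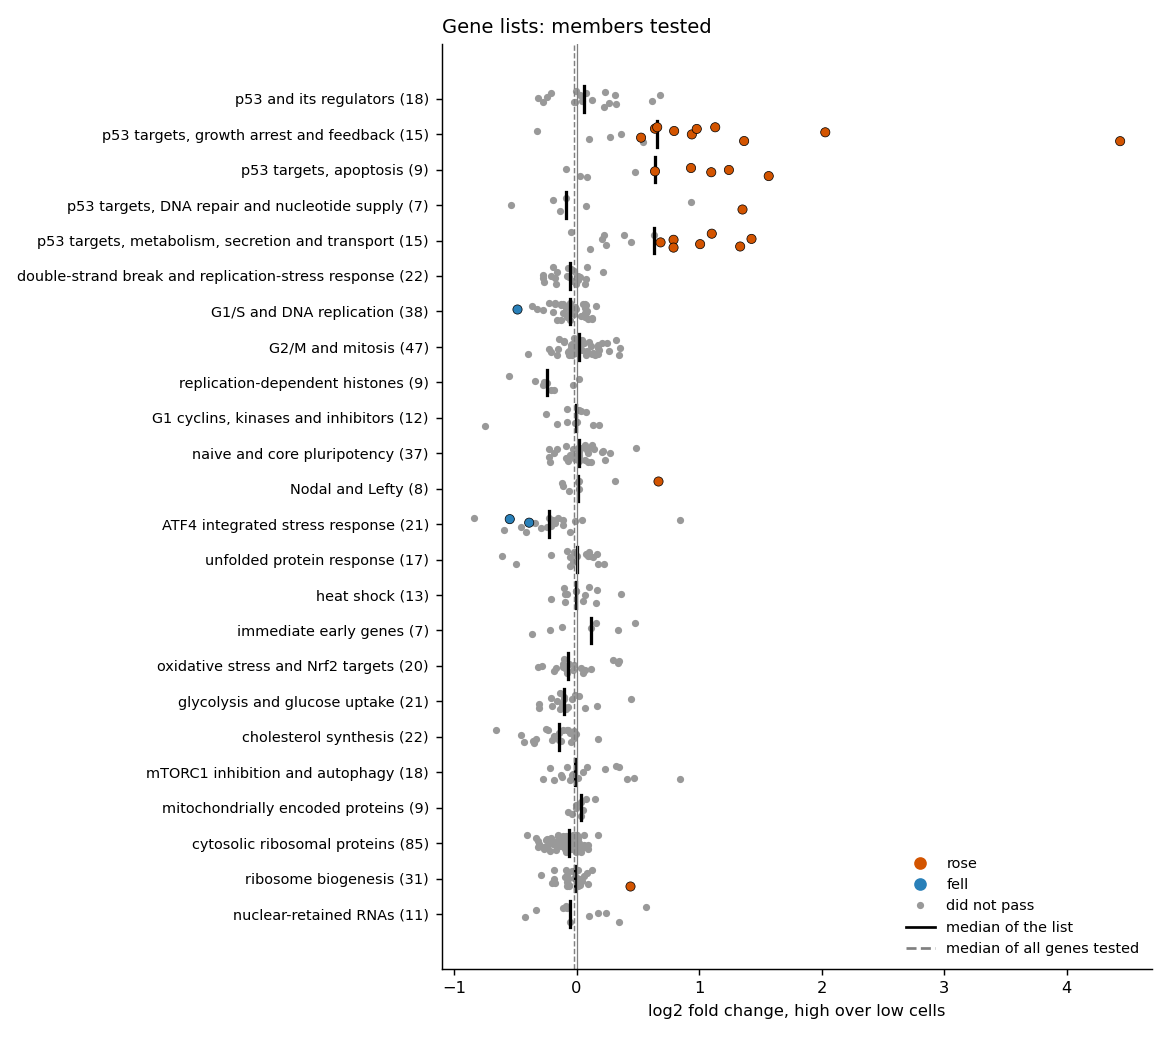
Log2 fold change, high over low cells, of each tested member of the gene lists with at least 7 tested members (number in brackets); large orange points rose and large blue points fell, black bars are list medians and the dashed line is the median of all genes tested. The medians of 3 of the 4 p53 target lists lie between 0.64 and 0.66, and that of the Atf4 list lies at -0.22.

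Few members of the cell cycle lists passed. Of 38 genes for G1/S and DNA replication, Tk1 fell (0.146% of all genes tested did) and none rose (median -0.057). DESeq2 called 2 lower, Tk1 and Gins4, and the fit without a filter none (adjusted p = 0.16 for Tk1, edgeR). Tk1 kept its call in 4 of 27 alternatives. The other 3 of the list with an unadjusted p below 0.05 were lower too. Among 47 genes for G2/M and mitosis none passed (median 0.018). Hmmr (0.32, adjusted p = 0.0955) and Ccnf (0.35, 0.145 likewise) came nearest on the high side, Bub1 (-0.40, 0.175) on the low side. Top2a was at 325, 762 and 1642 CPM in high cells, against 328, 738 and 1769 CPM in low cells. At an unadjusted p below 0.05, 4 of the 47 were higher and 3 lower, and DESeq2 called 1 of them higher, Hmmr (adjusted p = 0.0273). Over all 7556 genes, 439 were higher and 425 lower at that unadjusted threshold. The 9 tested replication-dependent histone genes had a median of -0.24, 8 of 9 lower (54.1% of all genes tested were), none passing. Of the cyclins, kinases and inhibitors of G1 none of 12 passed, while Rbl2, too low for that test, rose in the fit without a filter (1.47, adjusted p = 0.0282, edgeR) and shares 13.4% of its 31-base stretches with another gene. Rbl1, a retinoblastoma relative, had the largest difference there (-0.75, adjusted p = 0.165).

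Of 37 tested members of the naive and core list none passed (median 0.023, 25 higher and 12 lower). Over all 7556 genes, 3470 were higher and 4086 lower. Pou5f1, the factor Oct4, was at 34.96, 299 and 829.3 CPM in high cells, against 34.6, 299 and 673 CPM in low cells (log2 fold change 0.00062 ± 0.077 (SE), adjusted p = 0.999). Nanog was at 347, 420.4 and 846 CPM in high cells, against 298, 455 and 911 CPM in low cells (log2 fold change -0.086 ± 0.074 (SE), adjusted p = 0.717), and Sox2 had a log2 fold change of 0.093, Klf4 of 0.13 and Esrrb of 0.026. Zfp42, the marker Rex1, came nearest to passing, lower in 11 of 12 libraries, at 98.2, 758 and 1175 CPM in high cells, against 108, 910.3 and 1660.0 CPM in low cells (log2 fold change -0.22 ± 0.065 (SE), adjusted p = 0.0828). DESeq2 called Zfp42 lower (adjusted p = 0.0438) and no other member of the list, of which 3 were higher and 1 lower at an unadjusted p below 0.05. Over all 7556 genes, 439 were higher and 425 lower at that unadjusted threshold. Pou5f1, Nanog and Zfp42 share at least 10% of their 31-base stretches with other genes. Myc had too few counts in most sums to be tested, with 1435 counts in high cells against 2314 in low cells. These markers were present in both groups, as the label of the line calls for. Of 5 tested genes of primed pluripotency none passed.

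Among metabolic and stress lists, none of the tested members passed for cholesterol synthesis (22), glycolysis (21), mTORC1 inhibition and autophagy (18), the unfolded protein response (17), heat shock (13), immediate early genes (7), oxidative stress (20), mitochondrially encoded proteins (9), cytosolic ribosomal proteins (85) or nuclear-retained RNAs (11). In cholesterol synthesis 21 of 22 had a log2 fold change below 0 (54.1% of all genes tested did), with a median of -0.14 against -0.020 over all genes, and 5 had an unadjusted p below 0.05. The nearest was Dhcr7 (-0.65, adjusted p = 0.175), the last enzyme of the pathway. In the ribosomal protein list 69 of 85 lay below 0, with a median of -0.059 against the same -0.020. Within mTORC1 inhibition and autophagy, Ctsd, the lysosomal protease cathepsin D (0.47, adjusted p = 0.0531), and Ulk1, the kinase that starts autophagy (0.41, 0.0754), were just outside the threshold. DESeq2 called both higher (adjusted p = 0.0398 for Ctsd and 0.0293 for Ulk1) and no other gene of these 10 lists, and limma called none of them. The fit without a filter called Ctsd (0.49, adjusted p = 0.00561) and Malat1 (0.39, adjusted p = 3.15e-09), a nuclear-retained RNA, higher and Mt2 (-0.24, adjusted p = 0.021), a metallothionein, lower. With the filter Malat1 had an adjusted p of 0.501 and Mt2 of 0.365. Ctsd and Mt2 share 37.1% and 56.1% of their 31-base stretches with other genes. At an unadjusted p below 0.05 in edgeR, the 10 lists held 0 to 4 higher and 0 to 12 lower members each. Over all 7556 genes, 439 were higher and 425 lower at that threshold.

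The sums of markers of other cells ranged as follows over the libraries. For primitive endoderm (14 of 14 markers with a count) the sums were 120.4 to 717 CPM in high cells and 151 to 582.7 CPM in low cells, higher in 7 of 12 libraries. For fibroblast feeder cells (11 of 14, 3 at 0) they were 12.8 to 64.3 CPM in high cells and 0 to 60.4 CPM in low cells, higher in 10. Trophectoderm markers (9 of 11) summed to 0 to 135 CPM in high cells and 12.9 to 70.5 CPM in low cells, higher in 5 libraries, and mesendoderm markers (8 of 9) to 4.61 to 142 CPM in high cells and 6.44 to 67.5 CPM in low cells, higher in 9. Neural markers (9 of 9) summed to at most 137 CPM in high cells and 214 CPM in low cells, higher in 4. Genes of the two-cell-like state (18 of 22) summed to 0 to 478 CPM in high cells and 0 to 728 CPM in low cells, higher in 5. The median sums were low, at 5.56 CPM in high cells and 4.56 CPM in low cells. In the fit without a filter none passed, and 16 of the 18 had a log2 fold change below 0 (median -1.09). With median sums this low, few counts can set the sign of a member. Members read in the same cells are not separate observations. Of all 25587 genes in that fit, 12292 lay below 0 (median 0.020). The part of these cells in the results was not tested.

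Measures of cell quality were compared over the 12 libraries by an exact two-sided sign-flip permutation test, with Benjamini-Hochberg adjustment over 4 tests (smallest possible p = 0.000488). The mitochondrial share of counts averaged 4.67% ± 2.60 in high cells and 4.85% ± 3.13 in low cells (SD, n = 12; exact p = 0.475, adjusted 0.717). The ribosomal protein share averaged 7.11% ± 3.83 in high cells and 7.20% ± 3.89 in low cells (exact p = 0.550, adjusted 0.717), and the spike-in share 5.88% ± 4.18 in high cells and 6.10% ± 4.87 in low cells (exact p = 0.717). Spike-in differences ran from -3.23 to 3.67 percentage points, with 6 libraries higher and 6 lower. In the Drop-seq libraries that share was only 0.0087% to 0.038%, so those pairs say little. Genes detected per cell after thinning to 10000 counts averaged 3547 ± 278 in high cells and 3486 ± 307 in low cells, higher in 10 of 12 libraries (difference 60.9 ± 56.3 SD, exact p = 0.00293, adjusted 0.0117). With cells ranked on thinned counts that difference was 9.17 genes (exact p = 0.681). The share of a gene's high sum that came from its top cell had a median over libraries of 14.1% to 41.96% for the 62 risers.

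Whether the effect differed between full-length and 3' tag methods was tested with an interaction term. No gene of 7562 passed in edgeR, DESeq2 or limma, with 313 at an unadjusted p below 0.05 in edgeR. The mean library difference was above 0 for 62 of the 62 risers in the full-length libraries and for 61 in the tag libraries, which took part in choosing them. The smallest p outside the 6 genes belonged to Nudt19, Gtse1, Rnf34, Pid1 and Gm11517, each with an adjusted p of 1, and Nudt19, Rnf34 and Gm11517 share 14.8% to 40.04% of their 31-base stretches with another gene. For Gtse1 the log2 difference averaged 1.02 in Smart-seq2, 0.93 in Smart-seq / C1 and 0.92 in Drop-seq, but 0.14 in SCRB-seq, 0.13 in MARS-seq and 0.074 in CEL-seq2 (interaction 0.76 ± 0.21 SE). Fitted on 4 or 8 libraries alone, full-length methods gave 4 rises and no fall among the genes outside the 6, and tag methods 4 rises and 2 falls. Among the 62 were 3 of the 4 full-length rises and all 4 tag rises, while 0 of the 2 tag falls were among the 11. These counts come from fewer libraries.

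Finally, each library was left out, genes that rose in a fit on the other 11 were taken if they were also among the genes tested on all 12 (64 of 70 for MARS-seq A), and their direction was read in the left-out library, which had no part in that fit. The share that was higher in its high cells ran between 57.8% in MARS-seq A (37 of 64) and 100% in Smart-seq2 A (29 of 29) and Smart-seq2 B (32 of 32), against 45.8% to 52.2% for all genes. CEL-seq2 B stood at 97.4% (37 of 38), both Smart-seq / C1 libraries at 86.0% and MARS-seq B at 80.3%. SCRB-seq A (61.9%), Drop-seq A (64.2%), SCRB-seq B (68.8%), Drop-seq B (71.6%) and CEL-seq2 A (77.4%) were lower. Genes that fell in such a fit were fewer. Of these, 7 of 15 were lower in Drop-seq B, 6 of 12 in SCRB-seq B, 6 of 11 in SCRB-seq A, 4 of 7 in Smart-seq / C1 A and 7 of 12 in MARS-seq A. In Smart-seq2 A 3 of 3 were lower, in Smart-seq2 B 4 of 4, in CEL-seq2 B 1 of 1, in CEL-seq2 A and MARS-seq B 5 of 6 each, in Smart-seq / C1 B 9 of 13 and in Drop-seq A 8 of 12. The cells between the groups did not enter the fit that called these genes. Their mean log2(CPM + 1) lay between those of low and high cells for 56 of the 62 risers and 11 of the 11 that fell, and for the risers the median position was 0.486 of the way up. These genes were chosen by the difference between the outer groups, which by itself favours a place between them. Genes not called were not compared, so this is a description and not a test.

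**Figure D5:**
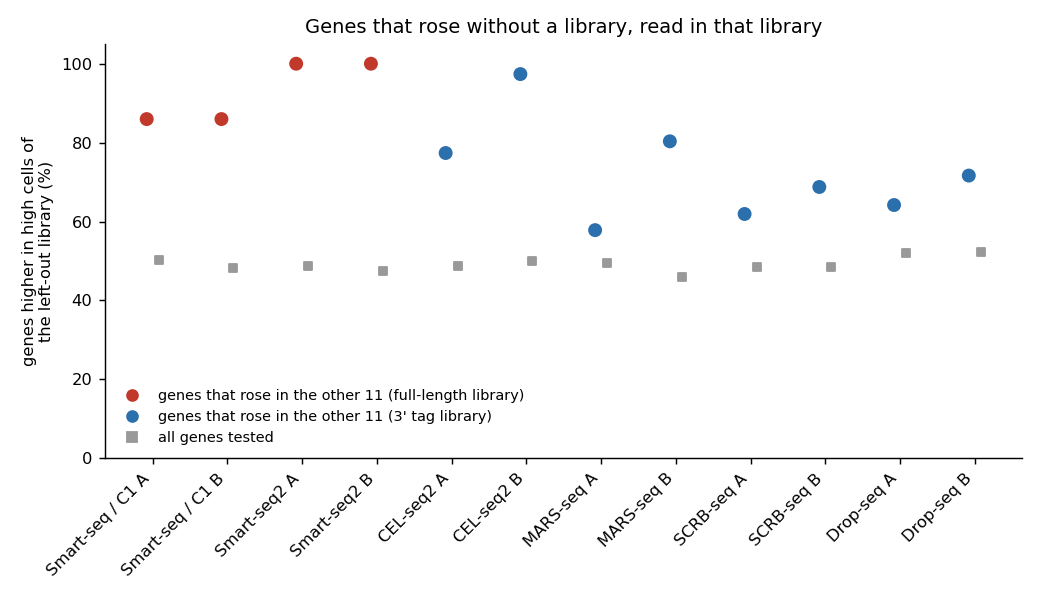
Share of genes (%) that were higher in the high cells of a library, for genes that rose in the fit without that library (circles, red for full-length and blue for 3' tag) and for all genes tested (grey squares). All circles lie above their square, from 57.8% in MARS-seq A to 100% in both Smart-seq2 libraries.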

How the data were processed

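The authors deposited 1 table of counts per gene and cell. For Drop-seq, CEL-seq2, SCRB-seq and MARS-seq these are UMI counts that the Drop-seq pipeline gave, according to the note the authors deposited beside the table. For both Smart-seq methods the deposited counts were taken as read counts, since those protocols carry no UMI. STAR 2.4.0 and the mm10 genome were used, per the submitters' processing notes. The annotation is not given in the sources used here, nor is whether counting used strand. GENCODE M21 gave names and coordinates (GRCm38) to 37595 of 38924 gene identifiers.

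Cells were ranked and summed as described above, every cell was kept, and doublets were not called. The sums were filtered with filterByExpr (7562 of 25593 genes with a count kept), scaled by TMM and tested in edgeR 4.0.16 (R 4.3.3) with a robust quasi-likelihood fit and the library as a block. The common biological coefficient of variation was 0.203, with 11 residual degrees of freedom. P-values were adjusted by Benjamini-Hochberg over all genes of a fit, and standard errors come from the test statistic. DESeq2 1.42.0, limma 3.58.1, other rankings, scalings, filters and left-out libraries were alternatives.

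Named genes were the 10 largest rises and falls whose log2 CPM averaged 5 or more, in 1 direction in at least 10 of 12 libraries, the 10 smallest p, the 5 smallest p between method classes, a few genes of each list and a set of p53 and pluripotency genes. Cells, genes and lists were chosen with earlier results of these data known. Where a named gene shares at least 10% of the 31-base stretches of its longest transcript with another gene, the text says so. Counts of PCR reads are not independent molecules, and the limit of 3 given for a count of 0 covers counting error only.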

Additional observations from a re-analysis of the deposited data

Results flagged for a closer look

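With Cdkn1a left out of the score, its log2 ratio of high over low cells was 0.355 in Smart-seq / C1 B (44.8 CPM in high cells and 34.8 CPM in low cells). It was 0.738 in Smart-seq / C1 A, 0.782 in Smart-seq2 A and 0.758 in Smart-seq2 B, so this library stood apart from the other full-length libraries by Dixon's test. It was the 1 value so marked in 20 such checks, and chance marks about 1 in 20.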

How the results depend on the processing

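Of the genes outside the 6, 73 passed (62 higher, 11 lower). DESeq2 with its size factors gave 153 (112 higher, 41 lower), no filter on low counts 157 (138 and 19), limma-trend on log2 CPM 6 (6 and 0), full-length methods alone 4 (4 and 0) and 3' tag methods alone 6 (4 and 2). Without the library as a replicate block, that is unpaired, 1 gene passed (1 higher, 0 lower). In the other rankings and groupings, falls alone moved by over 1.5 times: 4 with deeper and shallower cells ranked apart, 5 with all cells split in 2 groups and 4 with scores from z-scores. Leaving out each library in turn gave 32 to 89 genes (29 to 76 higher, 1 to 15 lower), lowest without Smart-seq2 replicate A for rises and without CEL-seq2 replicate B for falls. Falls numbered 6 without CEL-seq2 replicate A and 6 without MARS-seq replicate B. With cells ranked on 10000 counts, 67 genes rose, of which 44 were among the 62. In every setting all of the 62 that were tested kept a fold change above 0, and all 11 one below 0. The difference between method classes gave 0 genes, and 0 to 1 with a library left out.

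Left out of the score, the ranking genes lost their call in smaller sets of libraries, where fewer libraries enter: in full-length libraries Mdm2 (1.66), Cdkn1a (0.67), Ccng1 (1.38) and Phlda3 (1.399), and in tag libraries Cdkn1a (0.41) and Phlda3 (0.94). Trp53inp1 lost it with cells ranked on 10000 counts (1.21), and the cause was not tested. Phlda3 ran from 0.92 to 1.46 with a library left out. Aen, which could be read in 9 of the 12 fits with a library left out, ran there from 0.30 to 0.64 (without Smart-seq / C1 replicate A). The mitochondrial share difference (-0.183) was -0.00795 without CEL-seq2 replicate B and -0.0999 without CEL-seq2 replicate A. The ribosomal protein share turned to 0.012 with means over cells and 0.021 with fewer cells at each end, and the spike-in share ran from -0.572 to 0.056 with a library left out. The genes per cell at 10000 counts differed by 9.17 with cells ranked on 10000 counts. For the 131 named genes, 3022 of 3410 alternative values kept direction and call, 235 lost the call and 42 gained it. The remaining 111 fell in none of these classes. None that passed changed sign. The median cell of a Drop-seq or MARS-seq library held at most 10 counts of the 6 genes, which limits the ranking there.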

Other observations

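The following genes rose outside the target lists and were picked after their values were seen, not as a group. Kif18b, a kinesin of mitotic spindles, had a log2 fold change of 0.96 ± 0.22 (SE, adjusted p = 0.0157, edgeR) and was higher in 10 of 12 libraries. Fam83d, which recruits casein kinase to the spindle, had 0.73 ± 0.19 (adjusted p = 0.0390) in 10, and Tubb6, a beta-tubulin, 0.50 ± 0.12 (adjusted p = 0.0314) in 11. Gja1, the gap junction protein connexin 43, had 0.77 ± 0.15 (adjusted p = 0.00258) in 10 libraries, and Fat1, a large cadherin, 0.69 ± 0.15 (adjusted p = 0.0065) in 11. When 1 ranking gene at a time was left out of the score, 46 (without Ccng1) to 76 (without Aen) genes outside the 6 passed.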
